A study of Rattus norvegicus with 9 samples.

Results

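The genes of fatty acid uptake, storage and beta-oxidation were followed in the left ventricle of rats by RNA-seq. The list held 41 genes chosen by name, from the lipase that frees fatty acids at the vessel wall to the enzymes of the beta-oxidation spiral and the lipid droplet. Of these, 39 were found by name among the 35843 genes of the table, each in a single row, while Cd36 and Eci2 were not analysed here. All rats were adult male Sprague-Dawley (SD) rats with no transgene, and each of the 3 groups held 3 rats taken at day 28. Group Sham had the chest operation without ligation and saline by daily gavage. Group MI had the left coronary artery tied off for good at its anterior descending branch, which causes a myocardial infarction (MI), and the same saline. Group MI + DAPA (1st d), called MI + DAPA here, had the ligation and daily gavage with dapagliflozin (DAPA), an inhibitor of the renal sodium-glucose cotransporter SGLT2, from the start of the follow-up. The tissue was left ventricle, a mixture of cell types. The study took most material for molecular work from the infarct border without the scar, and from the matching site of Sham hearts, but calls the sequenced tissue infarct myocardium, so the exact site is not settled here. Each title lists a pair of sub-numbers for its rat, whose meaning is not given, and each rat is treated as a single sample.

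In the heart, long-chain fatty acids are the main fuel of the resting cardiomyocyte. They are freed from circulating triglyceride by lipoprotein lipase, carried into the cell and along it by transport and binding proteins, and activated to acyl-CoA by acyl-CoA synthetases. Carnitine palmitoyltransferases bring acyl groups into the mitochondrion, where the spiral of dehydrogenation, hydration, dehydrogenation and thiolysis cuts them into acetyl-CoA and passes electrons through electron transfer flavoprotein to ubiquinone. Malonyl-CoA, made by acetyl-CoA carboxylase, inhibits carnitine palmitoyltransferase I, and the nuclear receptors of the PPAR family drive transcription of many of these enzymes.

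Expression is given as FPKM, a fragment count scaled to gene length and to a library size that here was not the total of all reads. Whole reads recovered from the FPKM steps came to between 13597239 and 17210909 per rat. Genes of the mitochondrial genome took 63.2% ± 3.18 of them in Sham rats, 13.8% ± 6.15 in MI rats and 25.6% ± 7.42 with DAPA (SD, n = 3 each). Nuclear genes were therefore read at the lowest depth in group Sham, with 5702454 to 13171891 other reads per rat over all groups. Markers of other cells differed between the groups. Of the markers tested, all 9 endothelial markers were lower and all 10 macrophage and all 10 fibroblast and matrix markers were higher after infarction (MI vs Sham), each at a limma adjusted p under 0.05. The 18 cardiomyocyte markers found had a mean log2(FPKM + 1) of 6.95, 7.38 and 7.37 in the Sham rats, 6.42, 5.25 and 7.34 in the MI rats and 7.62, 7.95 and 7.02 in the MI + DAPA rats. Their summed FPKM ran from 7687 to 11202 for Sham, from 2289 to 11115 for MI and from 8623 to 17953 for MI + DAPA, and none of the defining markers was at 0. MI replicate 2 stood apart with the lowest cardiomyocyte level, whereas MI replicate 3 was at the level of the Sham rats. In bulk tissue, fewer cells of a type and less RNA per cell cannot be told apart.

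Expression in group MI was first compared with group Sham, which asks how the pathway stood 28 days after infarction. The genes that fell were spread over the pathway, with at least 1 in each step except activation by the long-chain synthetases. Lpl, Phyh, Acacb, Lipe, Ucp3, Etfb, Acot13, Acadvl, Dgat1, Eci1, Ppard and Slc27a1 fell, and Ucp2 alone rose. Ucp3 reached the FPKM of 1 that the filter requires only in Sham rats, so only a fall could be called for it. Differences were tested with limma on log2(FPKM + 1) and adjusted by Benjamini-Hochberg over all genes tested, and only an adjusted p under 0.05 counts as a call. On this scale the fold change of a weakly expressed gene comes out too small. Of 37 genes tested, 12 (32.4%) were called lower and 1 (2.7%) was called higher, where 19.5% of all 13485 genes tested were called lower and 19.5% higher. At an unadjusted p under 0.05 with an absolute log2 fold change over 1, 11 (29.7%) were lower and 1 (2.7%) was higher, where 10.3% and 12.1% of all genes were. The median log2 fold change was -0.23 beside -0.01 for all genes tested. With each rat centred on its cardiomyocyte markers the median was 0.66, and with values rescaled over all genes, mitochondrial genome included, it was 1.10, settings that moved the median of all genes to 0.89 and 1.31. Against the median of all genes, the genes of the list lay 0.23 lower, 0.23 lower and 0.21 lower in these 3 scalings. Centring takes the same amount from every gene of a rat, so its 0.23 could not differ from that of the uncentred values. The rescaling over all genes also turned the split to 3 called lower and 21 called higher. The share of all genes called under that scaling is not given here, so the split is not read as a result about the list. The centring on cardiomyocyte markers, tested with each gene's own variance only, left 0 calls, and 12 of the 13 genes kept their direction. The smallest adjusted p of any gene tested in that way was 0.0381, so few calls were open to the list. Leaving out Sham replicate 2 gave 3 genes called higher and leaving out MI replicate 2 gave 2, in place of 1.

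**Figure D1:**
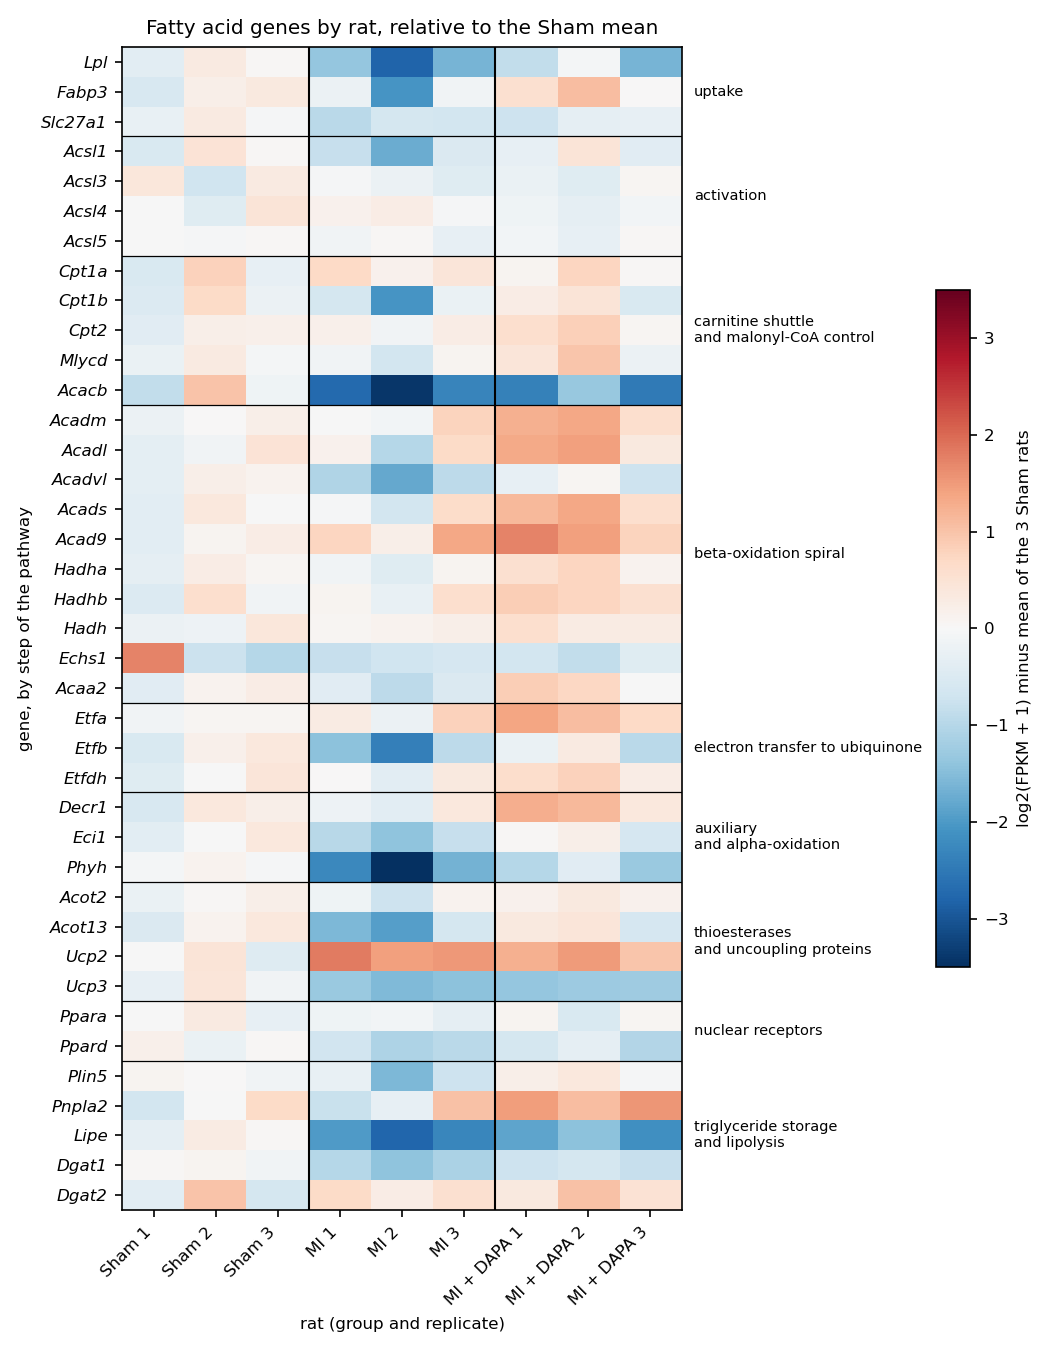
Heat map of the 39 genes found (rows, by step of the pathway) in the 9 rats (columns), as log2(FPKM + 1) minus the mean of the 3 Sham rats, blue lower and red higher. The column of MI replicate 2 is the bluest, holding the lowest of the 9 values for 22 of the 37 genes tested against Sham, and Acacb, Phyh, Lipe and Lpl are blue in all 3 MI rats.

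Treatment was then addressed by comparing group MI + DAPA with group MI, where no gene of the table passed the adjusted threshold. The fatty acid genes nevertheless lay mostly on the higher side in the treated rats. Of 36 genes tested, 32 had a positive and 4 a negative log2 fold change, with a median of 0.69 beside -0.02 for all genes tested. With limma, 0 were called at an adjusted p under 0.05, as were 0% of all 13251 genes, the smallest adjusted p among the 36 was 0.558, and limma's voom on the recovered reads also called 0. At an unadjusted limma p under 0.05, 17 of 36 (47.2%) were higher and 0 lower, where 4.59% of all genes were higher and 3.9% lower. With an absolute log2 fold change over 1 as well, 7 (19.4%) were higher and 0 lower, against 0.951% and 1.11% of all genes. In 13 (36.1%) the 3 MI + DAPA rats lay above all 3 MI rats, which held for 6.63% of all genes. The count of 17 became 7 without MI replicate 2, 7 without MI + DAPA replicate 1 (6 of them among the 17) and 5 without MI + DAPA replicate 2. The 18 cardiomyocyte markers found were also higher in group MI + DAPA than in group MI in 18 of 18 genes, with a median of 1.22. With each rat centred on those markers, the direction of the fatty acid genes turned, with a median of -0.50. Tested with each gene's own variance only, 0 of them were then higher at an unadjusted p under 0.05. Against the median of all genes the fatty acid genes lay 0.71 higher under the authors' scaling. Centring takes the same amount from every gene of a rat, so it could not change that value. The part of the cardiomyocyte level in it was not tested.

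Group MI + DAPA was also compared with group Sham. Acadm, Acads, Acad9, Etfa, Pnpla2 and Ucp2 were called higher in the treated infarcted rats than in group Sham, and Phyh, Ucp3, Lipe, Dgat1 and Acacb were called lower. These are 6 (16.2%) and 5 (13.5%) of 37 genes tested, where 14.5% of all 13359 genes were called higher and 14.1% lower, so neither share stood above the background by much. Of the 5 lower genes, Ucp3 passed the filter through the Sham rats alone, so it could be called only lower. At an unadjusted p under 0.05 with an absolute log2 fold change over 1, 7 (18.9%) were higher and 3 (8.11%) lower, where 9.54% and 8.16% of all genes were. The median log2 fold change was 0.21 beside 0.01 for all genes. Rescaling over all genes turned the split to 28 called higher and 2 called lower with a median of 1.26, and the share of all genes called there is not given here. Centring on cardiomyocyte markers, tested with each gene's own variance only, left 0 calls with a median of -0.086, and all 11 genes kept their direction. The smallest adjusted p of any gene tested in that way was 0.0276. These settings moved the median of all genes to 0.99 and -0.29. Without MI + DAPA replicate 1 the count of higher genes was 2, and without Sham replicate 3 or MI + DAPA replicates 1 or 3 the count of lower genes was 3 in each case. The comparisons share rats, the MI rats serving in both comparisons with MI in their name and the Sham rats in both with Sham, so their values stand side by side below.

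**Figure D2:**
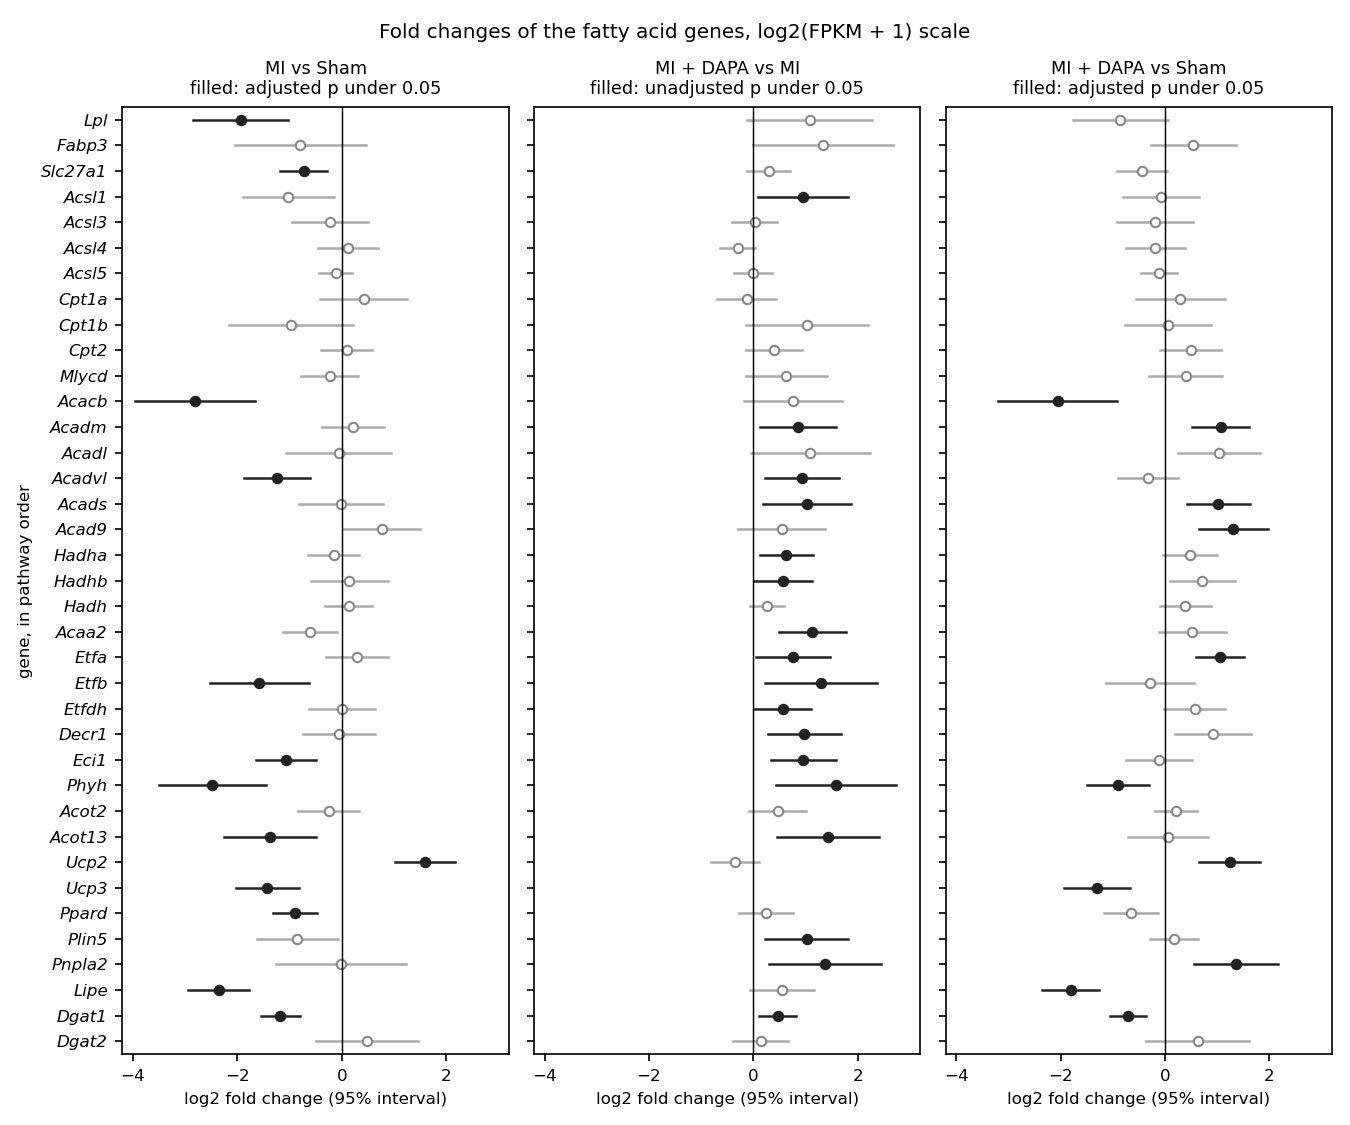
Log2 fold changes on the log2(FPKM + 1) scale (points) with 95% intervals (bars) for the 37 genes tested, in MI vs Sham (left), MI + DAPA vs MI (middle, without Ucp3, which was under the filter there) and MI + DAPA vs Sham (right). Filled points have an adjusted p under 0.05 in the outer panels and an unadjusted p under 0.05 in the middle panel, where most points lie right of 0, from -0.35 to 1.58.

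At the entry of fatty acids, Lpl, the lipase that hydrolyses circulating triglyceride, had FPKM of 324, 523 and 436 in the Sham rats, 163, 58.8 and 135 in the MI rats and 232, 398 and 134 in the MI + DAPA rats. All MI rats were below all Sham rats, and the MI + DAPA rats spread over both. Lpl fell in group MI (log2 fold change and SE -1.93 ± 0.39, limma adjusted p = 0.00864), and its treated rats differed from group MI by 1.08, 95% interval -0.12 to 2.28. Fabp3, the heart fatty acid-binding protein and the most abundant uptake gene, had FPKM of 271, 462 and 509.6 in the Sham rats, 349.6, 95.1 and 367 in the MI rats and 587, 847 and 399.9 in the MI + DAPA rats. MI replicate 2 was the lowest of the 9 rats and the other MI rats lay within the Sham range, while all 3 treated rats were above all MI rats. Its log2 fold change was -0.79 ± 0.54, limma adjusted p = 0.278 in MI vs Sham and 1.34, 95% interval -0.00 to 2.68 in MI + DAPA vs MI. Slc27a1, a fatty acid transport protein with acyl-CoA synthetase activity, had FPKM of 19, 28.9 and 22.4 in the Sham rats, 11.5, 14.8 and 14.4 in the MI rats and 13.7, 18.4 and 18.8 in the MI + DAPA rats. It fell in group MI by a smaller step, without overlap with group Sham (-0.73 ± 0.19, limma adjusted p = 0.0224), but lay at 0.75 when rescaled over all genes and at 0.16 when centred on cardiomyocyte markers. Its call also ended without Sham replicate 2, Sham replicate 3 or MI replicate 1 (limma adjusted p up to 0.0791).

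Activation to acyl-CoA rested on 4 synthetases of long-chain fatty acids. Acsl1, the main form of cardiomyocytes, had FPKM of 20.4, 41.8 and 30.8 in the Sham rats, 16.5, 8.21 and 20.5 in the MI rats and 24.4, 40.9 and 22.4 in the MI + DAPA rats. The MI rats were low, only MI replicate 3 touching the lowest Sham rat, and all treated rats were above them. Acsl1 did not pass in MI vs Sham (-1.02 ± 0.37, limma adjusted p = 0.0645) and had a log2 fold change of 0.95, 95% interval 0.09 to 1.81 in MI + DAPA vs MI. Acsl3, linked to lipid droplets, had FPKM of 9.51, 3.9 and 8.93 in the Sham rats, 6.81, 5.92 and 4.95 in the MI rats and 5.79, 5.01 and 7.34 in the MI + DAPA rats. Acsl4, which prefers arachidonic acid, had FPKM of 5.83, 4.11 and 8.37 in the Sham rats, 6.61, 7.22 and 5.68 in the MI rats and 5.2, 4.58 and 5.45 in the MI + DAPA rats. Acsl5, the most abundant of the 4, had FPKM of 35.8, 34.9 and 36.8 in the Sham rats, 32.8, 37 and 29.4 in the MI rats and 33.5, 29 and 36.7 in the MI + DAPA rats. These 3 overlapped between group MI and group Sham, and Acsl5 was nearly flat, with intervals of the log2 difference from -0.44 to 0.21 in MI vs Sham and from -0.36 to 0.36 in MI + DAPA vs MI. Acsl4 was lower in every treated rat than in every MI rat (-0.30, 95% interval -0.64 to 0.04).

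The carnitine shuttle was measured through 3 transferases. Cpt1a, the form that predominates in liver, had FPKM of 4.81, 13.7 and 5.8 in the Sham rats, 12.5, 8.22 and 10.2 in the MI rats and 7.91, 13 and 7.63 in the MI + DAPA rats. Cpt1b, the muscle form, had FPKM of 18.3, 42 and 22.4 in the Sham rats, 16.6, 5.45 and 21.9 in the MI rats and 31.3, 35.5 and 17.7 in the MI + DAPA rats. Cpt1a was lowest in Sham replicates 1 and 3, and Cpt1b was lowest in MI replicate 2, and the groups overlapped for both genes. Cpt1b had log2 fold changes of -0.97 ± 0.51, limma adjusted p = 0.169 in MI vs Sham and 1.03, 95% interval -0.15 to 2.20 in MI + DAPA vs MI. Cpt2, the transferase of the inner membrane, ran from 13.9 to 33.5 FPKM over the 9 rats with a log2 fold change of 0.10 ± 0.21, limma adjusted p = 0.732 in MI vs Sham. Control by malonyl-CoA is exerted by a pair of enzymes that make and remove it. Acacb, the acetyl-CoA carboxylase of the mitochondrial surface, had FPKM of 12.6, 47.7 and 21.3 in the Sham rats, 2.75, 1.29 and 3.96 in the MI rats and 3.79, 8.74 and 3.38 in the MI + DAPA rats. Every infarcted rat was below every Sham rat, treated or not. Acacb fell in group MI (-2.81 ± 0.49, limma adjusted p = 0.00525), the most negative of the 37 genes tested on the log2(FPKM + 1) scale, and was also lower in group MI + DAPA than in group Sham (-2.06 ± 0.49, limma adjusted p = 0.0194), a call that ended without Sham replicate 3 or MI + DAPA replicates 1 or 3 (limma adjusted p up to 0.0679). Mlycd, the malonyl-CoA decarboxylase that removes the inhibitor, had FPKM of 18.7, 27.5 and 21 in the Sham rats, 20.1, 13.8 and 23.5 in the MI rats and 30.02, 44.5 and 19.2 in the MI + DAPA rats. Its groups overlapped, and it did not pass the test (-0.23 ± 0.23, limma adjusted p = 0.464 in MI vs Sham).

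The acyl-CoA dehydrogenases open each turn of the spiral and divide the work by chain length. Acadvl, for very long chains, had FPKM of 81.4, 119 and 114 in the Sham rats, 49.7, 29.3 and 54.6 in the MI rats and 84.3, 108 and 61.9 in the MI + DAPA rats. The MI rats were below both other groups without overlap. Acadvl fell in group MI (-1.24 ± 0.27, limma adjusted p = 0.0113), a value that turned to 0.29 when rescaled over all genes, and had a log2 fold change of 0.93, 95% interval 0.22 to 1.63 in MI + DAPA vs MI. Acadl, for long chains and the most abundant gene of the spiral, had FPKM of 125, 144 and 219 in the Sham rats, 176, 78.8 and 252 in the MI rats and 394, 429 and 202 in the MI + DAPA rats. MI replicate 2 was lowest and MI + DAPA replicates 1 and 2 were highest, and the groups overlapped. Its log2 fold change was -0.06 ± 0.43, limma adjusted p = 0.928 in MI vs Sham and 1.03 ± 0.34, limma adjusted p = 0.0553 in MI + DAPA vs Sham. Acadm, for medium chains, had FPKM of 41, 48.5 and 54.9 in the Sham rats, 46.9, 44.9 and 82.3 in the MI rats and 116, 124 and 72.4 in the MI + DAPA rats. Acads, for short chains, had FPKM of 24.5, 41.3 and 31.4 in the Sham rats, 30.7, 19.97 and 50.5 in the MI rats and 70.9, 82.4 and 47.9 in the MI + DAPA rats. For both genes every treated rat was above every Sham rat, while MI replicate 3 lay among the treated rats. Acadm (1.07 ± 0.24, limma adjusted p = 0.0153) and Acads (1.02 ± 0.26, limma adjusted p = 0.0241) were higher in group MI + DAPA than in group Sham. Acad9, a dehydrogenase that also serves assembly of respiratory complex I, had FPKM of 5.31, 7.73 and 8.8 in the Sham rats, 12.7, 8.37 and 19.8 in the MI rats and 26, 20.9 and 12.9 in the MI + DAPA rats. It was higher in group MI + DAPA than in group Sham (1.31 ± 0.28, limma adjusted p = 0.014), and its difference between group MI and group Sham did not pass (0.77 ± 0.31, limma adjusted p = 0.0923). The calls against Sham of all 3 ended without MI + DAPA replicate 1, and that of Acads also without Sham replicate 1, Sham replicate 3 or MI + DAPA replicate 2, with limma adjusted p up to 0.0591 for Acadm, 0.0825 for Acads and 0.0507 for Acad9.

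Hydration, the later dehydrogenation and thiolysis of long chains are carried out by the mitochondrial trifunctional protein, made of an alpha subunit from Hadha and a beta subunit from Hadhb. Hadha had FPKM of 41.5, 62.7 and 54.1 in the Sham rats, 47.7, 38.6 and 55.3 in the MI rats and 76.7, 88.6 and 57.3 in the MI + DAPA rats. Hadhb had FPKM of 44.3, 92.3 and 56.9 in the Sham rats, 66.3, 51.5 and 92.9 in the MI rats and 113, 104 and 90.5 in the MI + DAPA rats. All treated rats were above all MI rats for Hadha, and for Hadhb MI replicate 3 overlapped with the treated rats. The log2 fold changes of the pair were close to each other, 0.63, 95% interval 0.12 to 1.14 for Hadha and 0.57, 95% interval 0.02 to 1.13 for Hadhb in MI + DAPA vs MI, and neither passed in MI vs Sham (-0.15 and 0.15). Acaa2, the thiolase of medium and long chains, had FPKM of 51.4, 74.4 and 81 in the Sham rats, 51.3, 35.6 and 47.1 in the MI rats and 125, 113 and 66.9 in the MI + DAPA rats. All MI rats were below all Sham rats by a narrow gap, and all treated rats were above all MI rats. Acaa2 had a log2 fold change of -0.60 ± 0.22, limma adjusted p = 0.0673 in MI vs Sham and of 1.13, 95% interval 0.49 to 1.77 in MI + DAPA vs MI, the interval farthest above 0 of the list in that comparison. Hadh, the dehydrogenase of short and medium chains, ran from 9.68 to 17.5 FPKM, with a log2 fold change of 0.13 ± 0.19, limma adjusted p = 0.617 in MI vs Sham. Echs1, the hydratase of short chains, had FPKM of 6.13, 0.26 and 0.0759 in the Sham rats and between 0.166 and 0.591 in the other 6 rats. Sham replicate 1 alone stood out, with 96 recovered reads where the others had 1 to 16, and the gene was under the filter of an FPKM of 1 in 3 rats.

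The start regions of the genes of the trifunctional protein are shown as a description, and their part in the expression values was not tested. Hadha and Hadhb start 301 bases apart on opposite strands of rat chromosome 6, and the windows of 250 bases before each start share 200 bases, at chr6:31907551-31907750 (build GRCr8, RefSeq), written 5′ to 3′ on the plus strand, which is that of Hadha, with no capitals since no searched motif lies in it.
Hadha and Hadhb shared window: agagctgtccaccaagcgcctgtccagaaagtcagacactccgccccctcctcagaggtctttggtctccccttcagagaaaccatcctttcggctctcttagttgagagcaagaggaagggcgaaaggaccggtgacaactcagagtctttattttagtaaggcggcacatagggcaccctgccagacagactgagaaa

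Electrons from the dehydrogenases pass through electron transfer flavoprotein, a dimer of Etfa and Etfb products, to its ubiquinone oxidoreductase Etfdh. Etfb, the most abundant of the 3, had FPKM of 182, 296 and 340.4 in the Sham rats, 96.6, 49.7 and 139.9 in the MI rats and 226, 329 and 137 in the MI + DAPA rats. Etfa had FPKM of 51.1, 58.6 and 58.3 in the Sham rats, 68.6, 48.1 and 98 in the MI rats and 147, 119 and 91.5 in the MI + DAPA rats. Etfdh had FPKM of 16.3, 22 and 30.3 in the Sham rats, 22.2, 17.1 and 28.7 in the MI rats and 34.9, 39.6 and 26.9 in the MI + DAPA rats. The subunits of the dimer differed in their overlap, since all MI rats were below all Sham rats for Etfb and the same groups overlapped for Etfa. Etfb fell in group MI (-1.58 ± 0.40, limma adjusted p = 0.0204), whereas Etfa had 0.29 ± 0.25, limma adjusted p = 0.395 and Etfdh -0.00 ± 0.27, limma adjusted p = 0.996, and the difference between the genes was not itself tested. The call of Etfb ended without Sham replicate 2 or Sham replicate 3 (limma adjusted p up to 0.0696). In MI + DAPA vs MI the log2 fold changes were 1.3, 95% interval 0.22 to 2.37 for Etfb, 0.76, 95% interval 0.06 to 1.46 for Etfa and 0.57, 95% interval 0.03 to 1.11 for Etfdh. Etfa was higher in group MI + DAPA than in group Sham (1.05 ± 0.20, limma adjusted p = 0.00932).

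Auxiliary enzymes prepare unsaturated and branched chains. Phyh, the peroxisomal hydroxylase that starts alpha-oxidation of phytanic acid, had FPKM of 567, 656 and 577 in the Sham rats, 125, 51.2 and 189 in the MI rats and 297, 457 and 245 in the MI + DAPA rats. The groups did not overlap, Sham being highest, MI lowest and MI + DAPA between them. Phyh fell in group MI (-2.48 ± 0.43, limma adjusted p = 0.00546), had the largest log2 fold change of the 36 genes in MI + DAPA vs MI (1.58, 95% interval 0.42 to 2.74), and was lower with treatment than in group Sham (-0.89 ± 0.26, limma adjusted p = 0.0364), a call that ended without any of the rats compared except MI + DAPA replicate 2 (limma adjusted p up to 0.116) and whose value turned to 0.29 when rescaled over all genes. Eci1, the enoyl-CoA isomerase of unsaturated chains, had FPKM of 73, 93.1 and 123.1 in the Sham rats, 47.8, 34.6 and 53.1 in the MI rats and 96.7, 109.7 and 62.7 in the MI + DAPA rats. All MI rats were below all rats of both other groups. Eci1 fell in group MI (-1.07 ± 0.24, limma adjusted p = 0.0135), a value that turned to 0.47 when rescaled over all genes, and had 0.96, 95% interval 0.34 to 1.57 in MI + DAPA vs MI. Decr1, the dienoyl-CoA reductase, had FPKM of 18.2, 35 and 31.1 in the Sham rats, 24, 20.6 and 35.4 in the MI rats and 66.6, 60.4 and 35.1 in the MI + DAPA rats. MI replicate 3 just exceeded the lowest treated rat, and the log2 fold change was 0.98, 95% interval 0.27 to 1.68 in MI + DAPA vs MI and -0.06 ± 0.29, limma adjusted p = 0.897 in MI vs Sham.

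**Figure D3:**
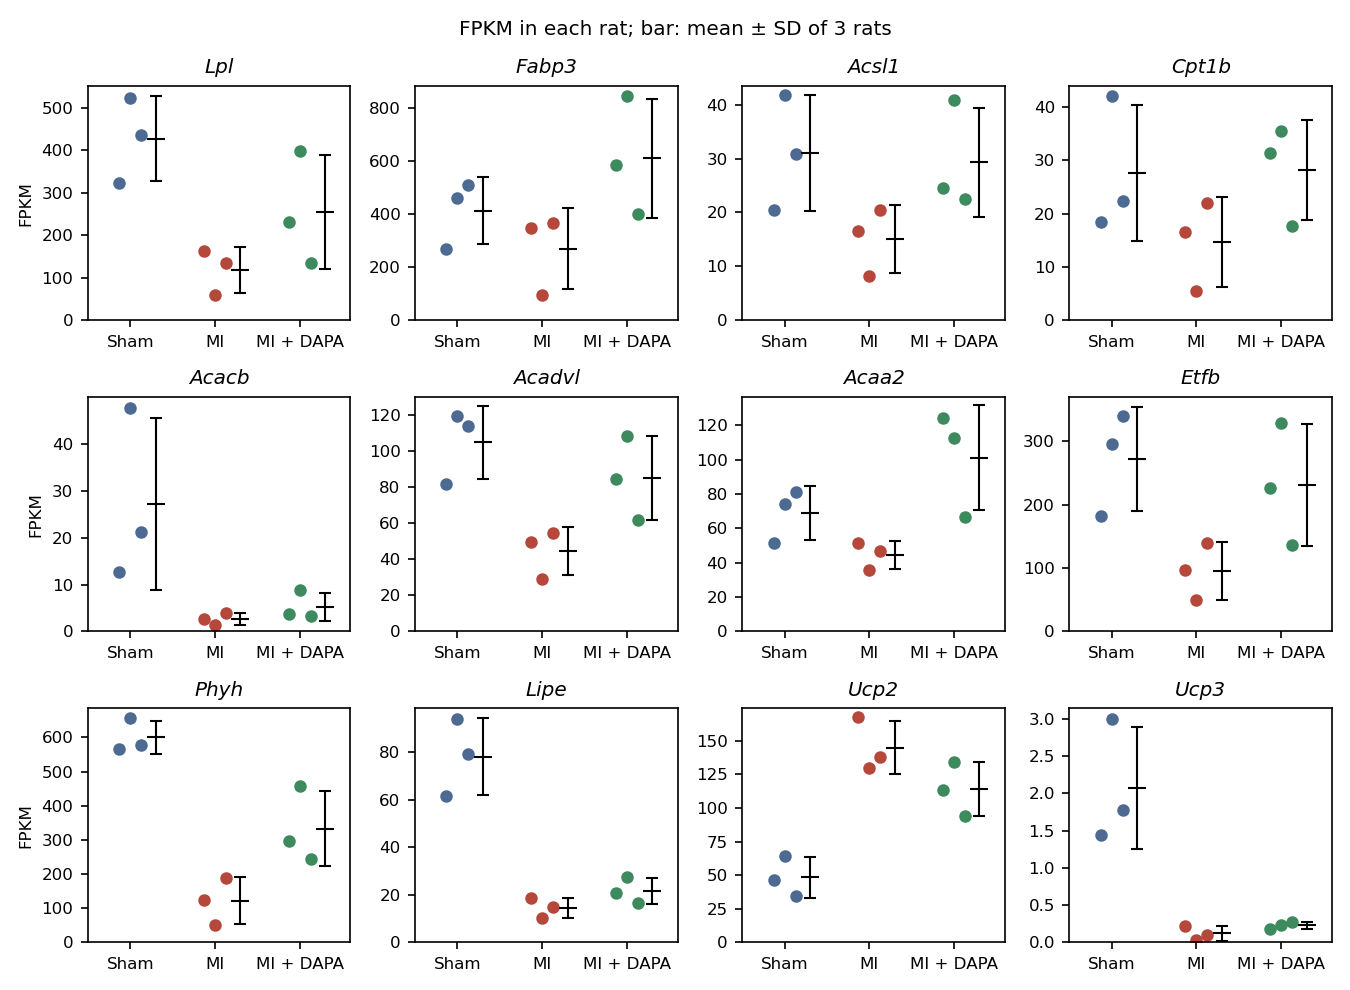
FPKM of 12 genes in each of the 9 rats (points, linear axes from 0), with the mean and SD of the 3 rats of each group beside them. For Acadvl, Phyh, Etfb, Lpl, Acacb, Lipe and Ucp3 all MI rats lie below all Sham rats, for Ucp2 all lie above, and the treated rats of Acacb, Lipe and Ucp3 stay in the low range.

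Thioesterases release fatty acids from acyl-CoA, and the uncoupling proteins sit in the inner mitochondrial membrane. Acot13 had FPKM of 26.9, 42.2 and 49.7 in the Sham rats, 12.3, 9.28 and 25 in the MI rats and 48.8, 52.1 and 25 in the MI + DAPA rats. The MI rats were below the Sham rats, and MI replicate 3 and MI + DAPA replicate 3 met at almost the same value. Acot13 fell in group MI (-1.37 ± 0.37, limma adjusted p = 0.0259), a call that ended without Sham replicates 2 or 3 or MI replicates 1 or 2 (limma adjusted p up to 0.0847) and whose value turned to 0.12 when rescaled over all genes, and had 1.43, 95% interval 0.45 to 2.40 in MI + DAPA vs MI. Acot2, the mitochondrial long-chain thioesterase, ran from 3.77 to 8.89 FPKM and did not pass (-0.25 ± 0.25, limma adjusted p = 0.46 in MI vs Sham), and since Acot1 is a close copy its counts are uncertain. Ucp2, expressed widely and in macrophages, had FPKM of 46.8, 64.6 and 34.4 in the Sham rats, 168, 129.7 and 138 in the MI rats and 114, 134 and 93.9 in the MI + DAPA rats. All infarcted rats were above all Sham rats, and MI and MI + DAPA rats overlapped. Ucp2 rose in group MI (1.59 ± 0.24, limma adjusted p = 0.00332) and was higher in group MI + DAPA than in group Sham (1.24 ± 0.25, limma adjusted p = 0.0115). The 10 macrophage markers were also higher in both infarcted groups, with a median log2 fold change of 2.55 in MI vs Sham and 1.91 in MI + DAPA vs Sham. Their summed FPKM ran from 101.4 to 226 for Sham, 847 to 1600.3 for MI and 445 to 987 for MI + DAPA. Within each infarcted group that sum ran in the reverse order of Ucp2. It was 847, 1600.3 and 849 in MI replicates 1 to 3 and 527, 445 and 987 in MI + DAPA replicates 1 to 3. The part of macrophages in the result was not tested. Ucp3, the form of striated muscle, had FPKM of 1.44, 2.998 and 1.78 in the Sham rats, 0.225, 0.0329 and 0.106 in the MI rats and 0.176, 0.235 and 0.273 in the MI + DAPA rats. The recovered reads were 52, 106 and 54 in the Sham rats, 15, 2 and 7 in the MI rats and 10, 13 and 17 in the MI + DAPA rats, and the infarcted groups lay below group Sham without overlap. Ucp3 fell in group MI (-1.43 ± 0.26, limma adjusted p = 0.00607) and stayed low with treatment (-1.29 ± 0.27, limma adjusted p = 0.013 vs Sham), and it was under the filter in MI + DAPA vs MI. Against group Sham it passed the filter through the Sham rats alone, so only a lower value could be called in either comparison.

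Nuclear receptors of the PPAR family were represented by 2 genes. Ppard had FPKM of 14.3, 10.6 and 12.9 in the Sham rats, 7.5, 5.33 and 6.08 in the MI rats and 7.87, 9.77 and 5.62 in the MI + DAPA rats. All infarcted rats were below all Sham rats. Ppard fell in group MI (-0.90 ± 0.18, limma adjusted p = 0.00915), a value that turned to 0.51 when rescaled over all genes, and its difference between group MI + DAPA and group Sham did not pass (-0.65 ± 0.22, limma adjusted p = 0.062). Ppara, the form best known for control of fatty acid oxidation in heart and liver, had FPKM of 0.673, 1.1 and 0.373 in the Sham rats, 0.535, 0.585 and 0.368 in the MI rats and 0.797, 0.175 and 0.779 in the MI + DAPA rats. It reached an FPKM of 1 only in Sham replicate 2 and was not tested, and the values of the groups overlapped.

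Triglyceride storage and its breakdown were followed in 5 genes. Lipe, the hormone-sensitive lipase, had FPKM of 61.3, 93.7 and 79 in the Sham rats, 18.6, 10.3 and 15 in the MI rats and 20.8, 27.6 and 16.6 in the MI + DAPA rats. All infarcted rats, treated or not, were below all Sham rats. Lipe fell in group MI (-2.35 ± 0.25, limma adjusted p = 0.0013) and stayed lower than group Sham with treatment (-1.81 ± 0.23, limma adjusted p = 0.00292). Dgat1, which adds the last acyl chain of triglyceride, had FPKM of 27, 28.4 and 24.1 in the Sham rats, 12.6, 9.3 and 11.8 in the MI rats and 15.7, 16.9 and 14.8 in the MI + DAPA rats. The groups did not overlap, in the order Sham, MI + DAPA and MI. Dgat1 fell in group MI (-1.17 ± 0.16, limma adjusted p = 0.00248), had 0.47, 95% interval 0.11 to 0.82 in MI + DAPA vs MI, and was lower in group MI + DAPA than in group Sham (-0.71 ± 0.15, limma adjusted p = 0.0122). Rescaled over all genes, its differences from group Sham turned to 0.30 (MI vs Sham) and 0.42 (MI + DAPA vs Sham). Dgat2, an unrelated enzyme for the same step, had FPKM of 1.73, 6.02 and 1.33 in the Sham rats, 4.6, 3.21 and 4.19 in the MI rats and 3.46, 6.24 and 4.08 in the MI + DAPA rats. Its Sham rats spread over the range of the other groups, and it did not pass (0.48 ± 0.41, limma adjusted p = 0.386 in MI vs Sham). Plin5, the droplet coat protein that tethers droplets to mitochondria, had FPKM of 3.45, 3.22 and 2.81 in the Sham rats, 2.46, 0.409 and 1.51 in the MI rats and 3.75, 4.37 and 3.03 in the MI + DAPA rats. All MI rats were below all rats of both other groups, with log2 fold changes of -0.85 ± 0.33, limma adjusted p = 0.0811 in MI vs Sham and 1.02, 95% interval 0.23 to 1.82 in MI + DAPA vs MI. Pnpla2, the adipose triglyceride lipase, had FPKM of 0.383, 1.13 and 2.43 in the Sham rats, 0.254, 0.783 and 3.42 in the MI rats and 4.94, 3.58 and 5.32 in the MI + DAPA rats. All treated rats were above all others. Pnpla2 was higher in group MI + DAPA than in group Sham (1.36 ± 0.34, limma adjusted p = 0.0233) and had 1.37, 95% interval 0.30 to 2.44 in MI + DAPA vs MI. Its call against Sham ended without Sham replicate 2 or MI + DAPA replicates 1 or 3 (limma adjusted p up to 0.0808).

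Markers of adipocytes are given beside these storage genes. Adipoq, the adipokine that defines fat cells, had FPKM of 0, 0 and 0 in the Sham rats, 0.457, 0.278 and 0.256 in the MI rats and 0.803, 3.54 and 5.96 in the MI + DAPA rats. Plin1, the coat of the adipocyte droplet, had FPKM of 0, 0 and 0 in the Sham rats, 0.242, 0.114 and 0.0697 in the MI rats and 0.162, 0.874 and 1.94 in the MI + DAPA rats. Cidec and Thrsp were likewise at 0 in all Sham rats and reached 1.29 and 8.39 FPKM in MI + DAPA replicate 3. MI + DAPA replicates 2 and 3 had the highest levels of these 4 markers among the 9 rats, and Pnpla2 was highest in the 3 treated rats. The summed FPKM of all 10 adipocyte markers nevertheless ran from 3952 to 5603 for Sham, from 395 to 765 for MI and from 629 to 1120.3 for MI + DAPA, a sum that is carried by Fabp4, which capillary endothelium also expresses. Calls among the 10 markers went both ways. In MI vs Sham 3 were tested, with 2 called lower and 1 higher by limma. In MI + DAPA vs Sham 5 were tested, with 2 called lower and 2 higher. In MI + DAPA vs MI 4 of 5 were positive and 0 were called, with log2 fold changes from -1.28 to 2.18. Markers tested in these comparisons but not in MI vs Sham passed the filter only with values of the treated rats. For those markers the filter itself favoured a higher value with treatment. The part of fat cells in the values of Pnpla2, Lipe and Dgat2 was not tested.

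Ratios between related genes within a rat cancel the scaling between libraries, except for genes near the added constant, such as Ucp3. They were compared as log2 ratios of FPKM + 0.1 by two-sided exact permutation tests, 7 ratios in 3 comparisons giving 21 tests, for which the smallest possible p with 3 against 3 rats is 0.1 and the smallest adjusted value was 0.263, so the design could not reach 0.05. The ratio of Fabp3 to Cd36 was not run. Cpt1a to Cpt1b was -1.82 ± 0.18 for Sham, -0.30 ± 0.84 for MI and -1.54 ± 0.39 for MI + DAPA (SD, n = 3 each). The ratio was highest in the MI rats, by 1.51 against group Sham and 1.24 against group MI + DAPA on the log2 scale, without overlap of the rats (exact permutation p = 0.1 each, adjusted p = 0.263). MI + DAPA and Sham overlapped for this ratio (difference 0.28, exact permutation p = 0.4). Among the MI rats it ran in the reverse order of the cardiomyocyte markers, at -0.41, 0.58 and -1.09 in replicates 1 to 3. In the other groups it did not follow that order. The part of the cell mix in this ratio was not tested.

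The widest shift against group Sham was that of Ucp2 to Ucp3, at 4.5 ± 0.38 for Sham, 9.44 ± 0.46 for MI and 8.44 ± 0.40 for MI + DAPA (SD, n = 3 each), the 3 groups not overlapping (exact permutation p = 0.1 for each pair). Its size rests on the constant added, the difference being 4.94 in MI vs Sham and -1.004 in MI + DAPA vs MI with 0.1 FPKM added but 3.02 and -0.48 with 1 FPKM added. Dgat2 to Dgat1 was -3.40 ± 1.02, -1.47 ± 0.03 and -1.80 ± 0.37 in the same order, with both infarcted groups above group Sham without overlap (exact permutation p = 0.1 each). Acsl4 to Acsl1 was -2.32 ± 0.86, -1.11 ± 0.84 and -2.46 ± 0.59, and the treated rats were below the MI rats without overlap (difference -1.35, exact permutation p = 0.1). Within each group it ran in the reverse order of the cardiomyocyte markers, and the part of the cell mix was not tested. Acsl3 to Acsl1, Acsl5 to Acsl1 and Ppard to Ppara overlapped between the groups in all 3 comparisons, with exact permutation p between 0.2 and 0.9. Ratios on Ucp3 and Ppara rest on few reads.

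**Figure D4:**
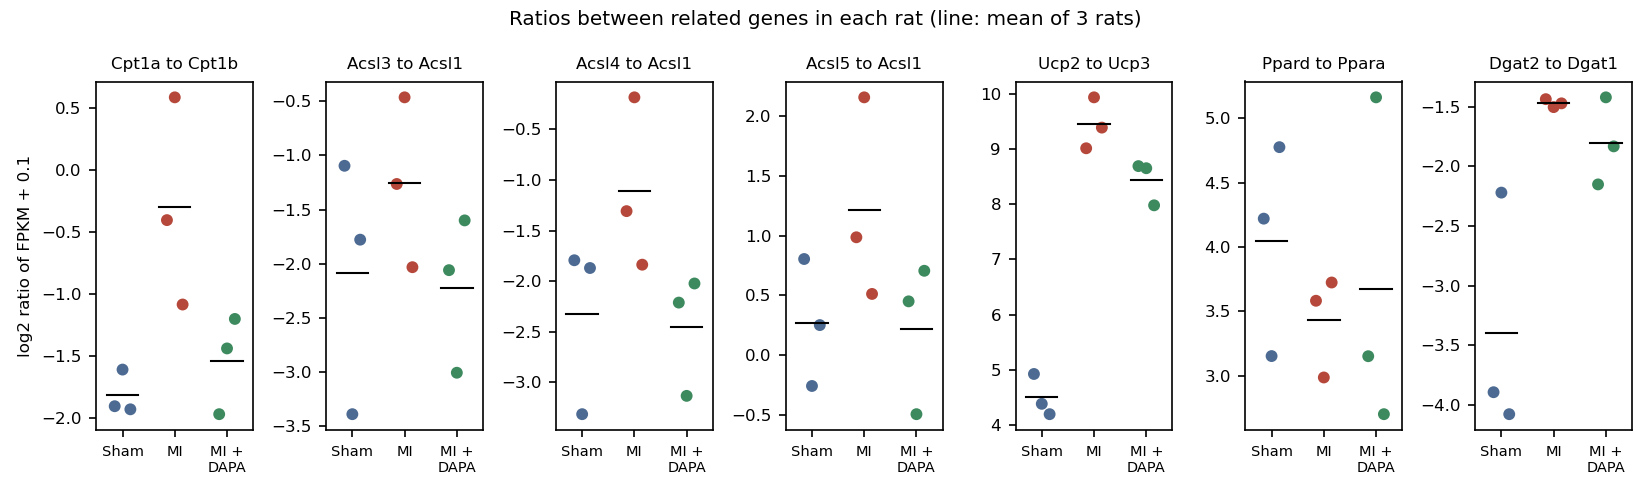
Log2 ratios of FPKM + 0.1 between related genes in each rat (points), with group means of 3 rats (lines), each panel on its own axis. The Ucp2 to Ucp3 panel shows 3 groups apart, from 4.5 on average for Sham to 9.44 for MI, and in the Cpt1a to Cpt1b panel MI replicate 2 is the highest rat.

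Levels were next set against the cardiomyocyte markers of the same rat. The median over the 37 genes of the difference, gene minus mean of the markers on the log2(FPKM + 1) scale, was -2.52, -1.98 and -2.37 in the Sham rats, -2.03, -1.26 and -2.73 in the MI rats and -2.60, -2.61 and -2.47 in the MI + DAPA rats. MI replicate 2 was highest on this measure and MI replicate 3 lowest, and the MI rats enclosed both other groups. The treated rats lay close together at the low end. By gene, 24 of 37 (64.9%) were higher relative to the markers in MI than in Sham rats, as were 87.1% of all genes tested. In MI + DAPA vs MI 5 of 36 (13.9%) were higher, as were 0.883% of all genes, and in MI + DAPA vs Sham 17 of 37 (45.9%), as were 33.2% of all genes. The centring moves all genes alike, and these signs are read against that shift. The centred differences of MI + DAPA vs MI were -0.27 for Acadvl, -0.34 for Acadm, -0.56 for Hadha, -0.62 for Hadhb and -0.060 for Acaa2, and those of Phyh, Acot13, Etfb, Pnpla2 and Fabp3 were the 5 that stayed positive, from 0.11 to 0.39.

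**Figure D5:**
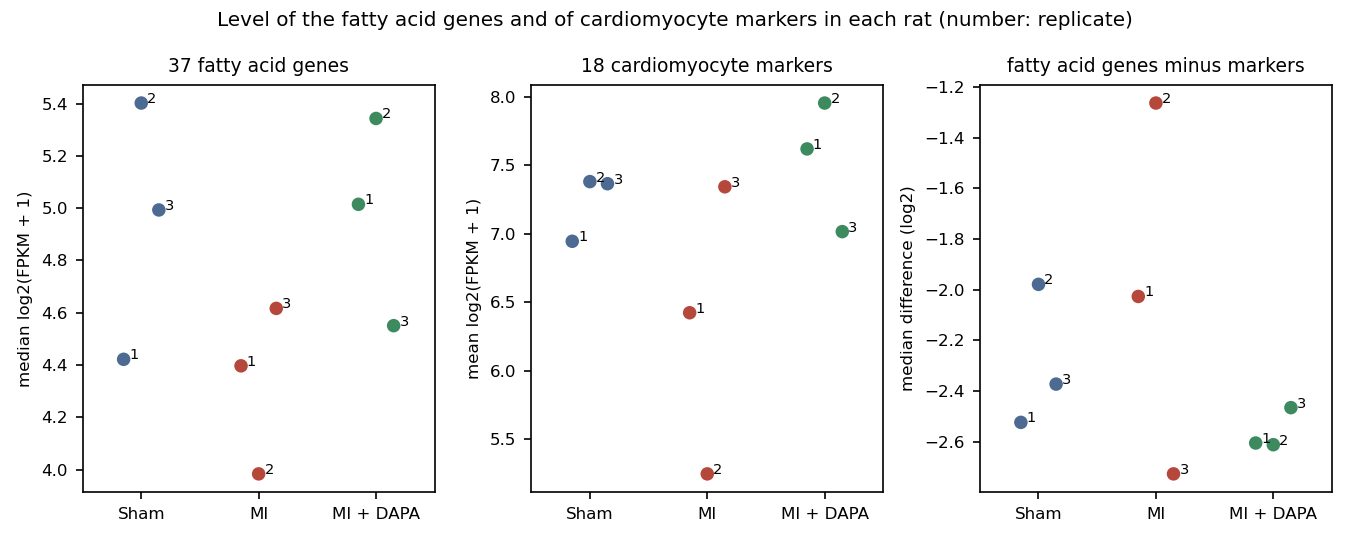
Median log2(FPKM + 1) of the 37 fatty acid genes (left), mean log2(FPKM + 1) of the 18 cardiomyocyte markers (middle) and median difference between gene and markers (right) in each rat, with replicate numbers beside the points and axes that do not start at 0. MI replicate 2 is lowest in the left and middle panels, at 3.98 and 5.25, and highest in the right panel, at -1.26.

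Other genes of the pathway came from a list of 78 names, of which 76 were found. In MI vs Sham 15 of 69 tested (21.7%) were called lower and 14 (20.3%) higher, near the 19.5% and 19.5% of all genes. In MI + DAPA vs MI limma called 0 of 66, with 5 (7.58%) higher and 3 (4.55%) lower at an unadjusted p under 0.05, where 4.59% and 3.9% of all genes were. In MI + DAPA vs Sham 10 of 70 (14.3%) were called lower and 14 (20%) higher, where 14.1% and 14.5% of all genes were. The steepest falls among them were in uptake. Fabp4, a binding protein of endothelium and fat, fell by 3.57 on the log2 scale (SE 0.49, limma adjusted p = 0.00258), Gpihbp1, which anchors lipoprotein lipase on capillary endothelium, by 2.75 (SE 0.53, limma adjusted p = 0.00728) and Fabp5 by 2.59 (SE 0.33, limma adjusted p = 0.00201). Gpihbp1 had FPKM of 97.4, 226 and 102 in the Sham rats, 41.3, 11.2 and 13.5 in the MI rats and 40.2, 46.5 and 14.6 in the MI + DAPA rats, so that both the lipase Lpl and its anchor were low in the MI rats. Gpihbp1 is itself on the list of endothelial markers. The 8 others moved with these genes, at summed FPKM of 1128 to 1353 for Sham, 306 to 397 for MI and 422 to 465 for MI + DAPA, and their part in the result was not tested.

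Along the rest of the pathway, Slc22a5, the plasma membrane carnitine carrier, fell (-1.39 ± 0.17, limma adjusted p = 0.00175), and Acaca, the cytosolic acetyl-CoA carboxylase, rose (0.63 ± 0.20, limma adjusted p = 0.0417) where Acacb fell. Among oxidation genes Acad10 (-1.27 ± 0.28, limma adjusted p = 0.0126), Echdc2 (-1.18 ± 0.27, limma adjusted p = 0.0136) and Pex11a (-1.07 ± 0.30, limma adjusted p = 0.029) fell, and Hsd17b10 (1.12 ± 0.37, limma adjusted p = 0.0467) and Scp2 (0.70 ± 0.17, limma adjusted p = 0.0182) rose. In storage, Plin2, a droplet coat protein of most cells, rose (1.26 ± 0.17, limma adjusted p = 0.00237), as did G0s2, an inhibitor of the lipase from Pnpla2 (1.00 ± 0.32, limma adjusted p = 0.0439), while Mgll, the monoglyceride lipase, fell (-1.14 ± 0.22, limma adjusted p = 0.00791). Plin5, the coat protein of oxidative tissues, did not pass in that comparison. Scd2, a desaturase, rose (1.65 ± 0.45, limma adjusted p = 0.0252), the acetyl-CoA synthetase Acss1 fell (-1.30 ± 0.20, limma adjusted p = 0.00356), and the receptors Pparg (-1.29 ± 0.17, limma adjusted p = 0.00243) and Rxrg (-1.18 ± 0.32, limma adjusted p = 0.0252) fell. Of the 8 transcription genes tested from that list, 2 were called lower and 2 higher, with log2 fold changes from -1.29 to 1.85. Of all genes, 19.5% were called lower and 19.5% higher.

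Start regions were read for the fatty acid genes because PPAR with its partner RXR is known to bind a direct repeat of the half-site AGGTCA with 1 base between the copies. RefSeq windows (build GRCr8) of 300 bases, from 250 before the start to 50 after it, were matched by symbol for 32 of the 41 genes. The repeat, allowing at most 2 mismatches over both copies on either strand, was present in 5 of 32 windows (15.6%), those of Acacb, Acadvl, Echs1, Etfa and Ucp3, and in 4.06% of 27457 windows of all genes. A perfect single half-site, which may lie within such a repeat, was present in 9 of 32 (28.1%) and in 16.9% of all genes. A match is a description of the letters and not a bound site. The 250 bases before the start are shown for the genes of the list that fell in group MI and hold a match, each 5′ to 3′ on the strand of the gene with the match in capitals. Acadvl lies at chr10:55236706-55236955 on the minus strand with 1 mismatch, its match starting 17 bases before the start. Acacb lies at chr12:48138215-48138464 on the minus strand and Ucp3 at chr1:164227660-164227909 on the plus strand, each with 2 mismatches. In Acacb the match reads on the strand opposite to the gene.
Acadvl: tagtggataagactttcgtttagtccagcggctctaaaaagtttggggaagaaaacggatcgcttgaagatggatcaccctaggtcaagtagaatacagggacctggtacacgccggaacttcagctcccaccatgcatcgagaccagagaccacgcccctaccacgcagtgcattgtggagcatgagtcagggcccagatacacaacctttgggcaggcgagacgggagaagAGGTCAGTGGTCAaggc
Acacb: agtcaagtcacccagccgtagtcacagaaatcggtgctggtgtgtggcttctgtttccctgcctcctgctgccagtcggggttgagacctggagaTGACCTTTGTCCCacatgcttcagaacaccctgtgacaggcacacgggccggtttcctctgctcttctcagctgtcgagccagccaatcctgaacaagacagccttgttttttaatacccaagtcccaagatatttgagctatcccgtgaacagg
Ucp3: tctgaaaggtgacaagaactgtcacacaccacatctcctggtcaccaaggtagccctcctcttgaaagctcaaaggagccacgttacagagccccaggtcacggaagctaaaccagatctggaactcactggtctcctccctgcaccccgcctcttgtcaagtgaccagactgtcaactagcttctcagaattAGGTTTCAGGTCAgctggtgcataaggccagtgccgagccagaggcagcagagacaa

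The Ucp3 start lies 23463 bases before that of Ucp2 on the same strand of chromosome 1 in that build, and these neighbours were the pair whose ratio differed most of the 7 in MI vs Sham, with log2 fold changes of -1.43 and 1.59 in MI vs Sham. The Ucp2 window held no such repeat.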

How the data were processed

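Poly-A libraries of left ventricle from 9 rats (3 per group) were sequenced by the authors, who deposited 1 FPKM value per gene and rat. The submitters' processing notes name HISAT2 2.0.5, StringTie 1.3.3b, featureCounts 1.5.0-p3 and DESeq2, and the genome build is not given in the sources used here. In the deposited FPKM, 1 read is worth 0.542 to 0.593 as much in the MI rats as in Sham replicate 1, where a denominator of all reads would give 1.05 to 1.24. A denominator of reads outside the mitochondrial genome would give 0.499 to 0.520. Whole reads (within 0.02) were recovered for all 18896 genes that had values in 4 or more libraries, and intervals and floors from them cover counting error only.

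The study's 2-group count test was replaced, since the values are FPKM, by limma 3.58.1 (R 4.3.3) on log2(FPKM + 1), with a trend in the prior variance, only the 2 groups compared, and a filter that kept genes reaching an FPKM of 1 in 3 or more of the 6 rats. The script was tested on simulated data. Benjamini-Hochberg adjustment ran over all genes tested. Columns not used numbered 0. The nature of the replicates beyond 3 biological replicates per group is not given, so p-values measure the spread between these samples.

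The 41 genes and all other lists were chosen with earlier results of these data known, so lists are described by counts and medians without a test. Values of every rat are given for genes passing in a comparison with group Sham with an absolute log2 fold change over 1, for those with an unadjusted p under 0.05 in MI + DAPA vs MI, for both genes of each ratio and for the most abundant gene of each step. At most 3 other pathway genes per role are named, those called in MI vs Sham with the largest change, and some genes that met this rule are not reported here. Values for other genes were added after they were seen. Ppara and Echs1 were under the filter. Alternatives were another pseudocount, no filter, all rats in 1 fit, a replicate block, no variance trend, 4 other scalings, voom on recovered reads, and each rat left out in turn. Tables and plots were made with matplotlib 3.10.9, pandas 2.3.3 and numpy 2.4.6 under Python 3.11.15.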

Additional observations from a re-analysis of the deposited data

How the results depend on the processing

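Under a pseudocount of 0.1, all rats in 1 fit, no variance trend, TPM without the mitochondrial genome, centring on all genes and voom on recovered reads, counts of called genes stayed within 1.5 times those reported. Voom used library sizes without reads of the mitochondrial genome, so it is no check on leaving those reads out of the scaling. Without the filter, 3 genes were lower in MI + DAPA vs Sham in place of 5. TPM over all genes, where the Sham libraries' large mitochondrial share lowers all other genes by construction, gave 3 lower and 21 higher with a median of 1.10 in MI vs Sham. In MI + DAPA vs MI it gave 9 higher and 2 lower at an unadjusted p under 0.05 with a median of 0.34, and in MI + DAPA vs Sham 2 lower and 28 higher with a median of 1.26. The shares of all genes called under it are not given here. With TPM over all genes the median of all genes was 1.31, -0.35 and 0.99 in these comparisons. It was 0.89, -1.21 and -0.29 with centring on cardiomyocyte markers, and -0.12 with voom in both comparisons with group Sham. TPM over all genes turned the sign of Acadvl (0.29), Eci1 (0.47), Slc27a1 (0.75), Ppard (0.51), Dgat1 (0.30) and Acot13 (0.12) in MI vs Sham, and of Phyh (0.29) and Dgat1 (0.42) in MI + DAPA vs Sham. Centring on cardiomyocyte markers, tested with each gene's own variance only, left 0 calls in both directions in each comparison with group Sham and 0 genes higher at an unadjusted p under 0.05 in MI + DAPA vs MI, with medians of 0.66 in MI vs Sham and -0.50 in MI + DAPA vs MI. It turned Slc27a1 (0.16) in MI vs Sham, and in MI + DAPA vs MI Hadha (-0.56), Hadhb (-0.62), Acadvl (-0.27), Acadm (-0.34), Acaa2 (-0.060), Etfa (-0.43), Acsl1 (-0.24), Acads (-0.16), Eci1 (-0.24), Etfdh (-0.62), Decr1 (-0.22), Dgat1 (-0.73) and Plin5 (-0.17). The cause was not tested. By the study's criterion 7 genes were higher in MI + DAPA vs MI and 3 lower in MI + DAPA vs Sham, and at an unadjusted p under 0.05 alone 2 were higher in MI vs Sham and 17 in MI + DAPA vs MI. Leaving out 1 rat at a time gave 9 to 14 lower and 1 to 3 higher in MI vs Sham (median -0.43 to -0.15), 5 to 22 higher at an unadjusted p under 0.05 and 0 at an adjusted p in MI + DAPA vs MI (median 0.47 to 0.93), and 3 to 7 lower and 2 to 7 higher in MI + DAPA vs Sham (median 0.08 to 0.38). Blocking on replicate number left 8 genes higher at an unadjusted p under 0.05 in MI + DAPA vs MI, and no called gene lost its call in the comparisons with group Sham. The numbers did not pair the rats: same-numbered deviations correlated at -0.01 to 0.07 in MI vs Sham, -0.32 to 0.03 in MI + DAPA vs MI and -0.01 to 0.20 in MI + DAPA vs Sham. The ratios under the block could give an exact p no smaller than 0.25. With a pseudocount of 1 the shift of Ucp2 to Ucp3 was 3.02 in MI vs Sham, -0.48 in MI + DAPA vs MI and 2.54 in MI + DAPA vs Sham, and the other ratios moved by less than their SD. Depth limits Echs1, Ucp3, Ppara, Plin5 and Pnpla2 most, whose lowest rats had 1, 2, 6, 7 and 9 reads.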
